A study of Homo sapiens with 8 samples.

Results

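Gallic acid (GA) is a phenolic acid of tea, and H1299 is an established human non-small cell lung carcinoma line. The values described here are those of 4 Clariom S arrays, which read transcript levels with short probes. GA-treated H1299 cells make up 2 of them, after 120 h of exposure, and untreated H1299 cells of the same passage, the controls for GA, make up the other 2. The arrays were chosen by their sample labels from the 8 of the series, and all 21448 probe sets for genes were compared. The study asked which genes GA brings back to expression when DNA methyltransferases are inhibited, and set it beside 5-azacytidine, whose arrays are not described here. Cells of both groups grew in the same serum-containing medium, and no vehicle is named for the controls. The dose is 10 mM in the sample labels, whereas the study's text gives the same figure in μM. The replicates are labelled biological, and the cells are 1 line, so the p-values speak for these cultures alone.

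Several stress pathways have readable marker genes in such a profile. In the integrated stress response, kinases that sense missing amino acids, unfolded protein in the endoplasmic reticulum (ER), missing heme or viral RNA phosphorylate the initiation factor eIF2. General translation then falls while the mRNA of the transcription factor ATF4 is translated. ATF4 switches on amino acid transporters, enzymes that make amino acids, aminoacyl-tRNA synthetases and its own feedback regulators. The heat shock factor HSF1 governs cytosolic chaperones, the E2F factors govern genes of DNA replication, and the DREAM and B-MYB complexes govern genes of mitosis.

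The median log2 signal was 5.63 on both GA arrays and 5.63 and 5.60 on the control arrays. The array carries 612 negative-control probe sets, and a gene was taken as above background on an array where its signal exceeded 95% of them. That level lay at 6.78 and 6.89 on the GA arrays and at 6.31 and 6.51 on the control arrays, and 41.7% and 40.8% of probe sets exceeded it on the GA arrays against 45.0% and 43.3% on the control arrays. For a gene that stayed under this level on the pair of arrays of 1 group, the change is given as "at least" a fold, between the other group's mean and that level or the gene's own signal, whichever is higher. Such a bound has no error of its own. Of 16 measured markers of blood, endothelial and stromal cells, 15 were below background on all 4 arrays and none was called, and their summed linear signal was 5060 and 5510 on the GA arrays against 4780 and 4620 on the control arrays. CD68, which lies in lysosomes of many cell types, was the marker above background.

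At an adjusted p under 0.05, 326 probe sets were higher and 294 lower after GA, which is 1.52% and 1.37% of those tested (2.89% in either direction). Each count of called list members below is to be read beside that 2.89%. It spans 11604 probe sets below background on all 4 arrays, of which 101 were called. The share among expressed genes is therefore higher than 2.89%, and many of the lists hold mainly expressed genes. The calls come from limma with the replicate number as a pair term. In this fit a gene's own spread has 1 residual degree of freedom, against 13.7 from a prior pooled over all probe sets. The p-values therefore rest mostly on that pooled spread, and little on a gene's own. Of the 620 called probe sets, 538 bear a gene symbol. Among those measured in both groups, 16 fell by over 4-fold and 5 by over 8-fold, whereas 2 rose by over 4-fold and 0 by over 8-fold. All 620 called probe sets moved alike in both pairs. The size of change needed for a call, at least 0.949 on the log2 scale here, all but fixes this. In 619 the GA arrays did not overlap the control arrays, as they did not in 46.7% of all probe sets. Most calls were expressed genes, since 444 were above background on at least 1 array of each group, 75 have only a bound and 101 were below background in both groups, so that no change is read for the last.

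The number of calls depended on the fit. A gene's log2 fold change is the same with and without the pair term, so its direction could not differ between these fits. Without the pair term 142 probe sets passed, 55 higher and 87 lower (0.256% and 0.406% of those tested, 0.662% in either direction), and each of them was among the 620. Leaving out an array, in a fit without the pair term, gave 14 calls without GA replicate 1, 13 without GA replicate 2, 26 without control replicate 1 and 30 without control replicate 2. The lone array of a group is then assumed to vary like the other group's. A called gene is therefore marked below, where it is described singly, by both adjusted p-values from limma, first with and then without the pair term, and where a single one is given it is with the pair term. Where brackets cover several genes, they hold the values with the pair term in the order of the genes. Arrays of the same number were simulated with a spread taken from the fit without the pair term and with no pair effect. On these, the fit with the pair term found 89% of genes shifted 4-fold and 1% of genes shifted 2-fold. The fit without it found 93% and 11%. On the measured arrays the fit with the pair term called more probe sets, not fewer, so these shares do not give its sensitivity there. A gene that was not called may still have changed.

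**Figure D1:**
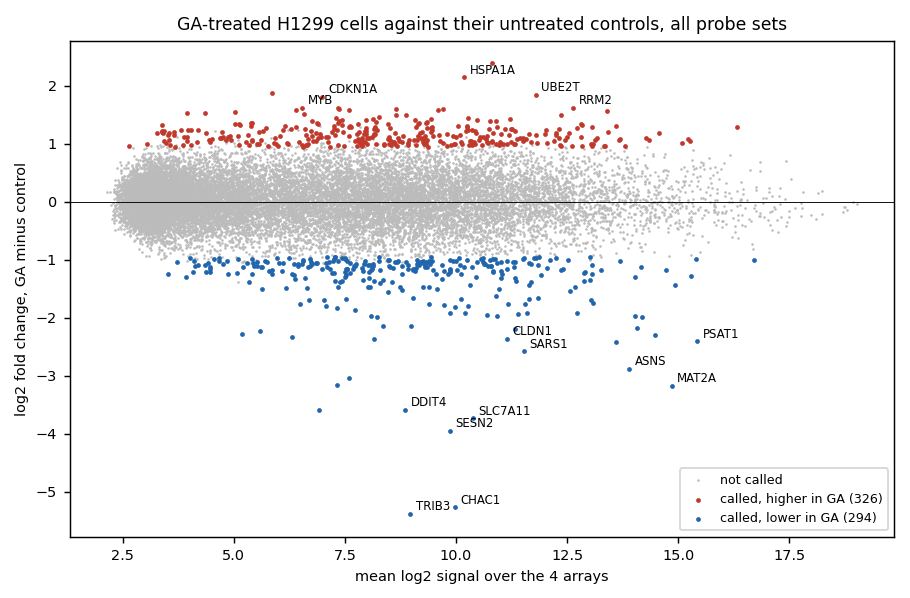
Each point is 1 of 21448 probe sets, with its mean log2 signal over the 4 arrays on the x axis and its log2 fold change, GA minus control, on the y axis. Red and blue points are the 326 higher and 294 lower calls, and the points that lie farthest from 0 are falls, led by TRIB3 and CHAC1.

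**Figure D2:**
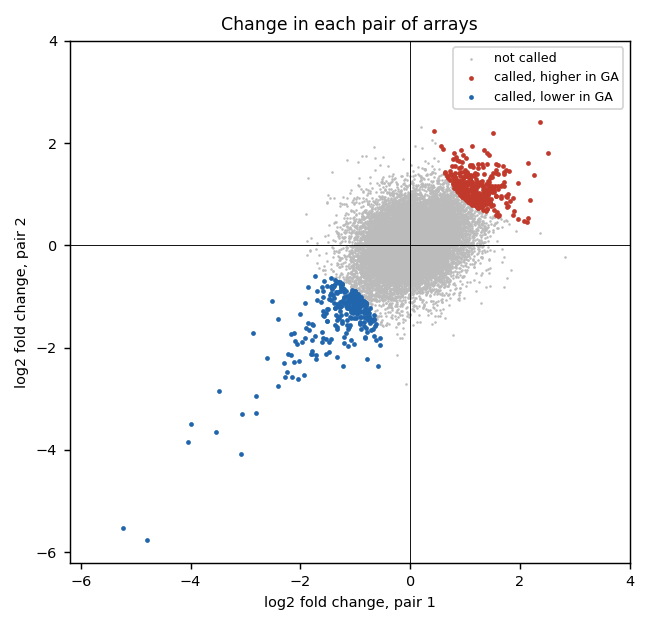
Log2 fold changes of pair 1 on the x axis and of pair 2 on the y axis for all probe sets, with called ones in red and blue. The called points lie in the lower left and upper right corners, since all 620 had the same sign in both pairs, which a call all but requires.

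The largest changes of the experiment were falls of genes of the integrated stress response. Of 22 measured regulators and feedback genes of this response, 12 fell and none rose, 11 of the 12 also without the pair term. Their median log2 fold change was -1.21, against 0.02 over all probe sets. TRIB3, a pseudokinase that holds back ATF4, had log2 signals of 6.41 and 6.13 on the GA arrays and 11.65 and 11.67 on the control arrays. It was thus below background after GA, and at least 28.3-fold lower (adjusted p = 2.53e-08 with and 4.69e-05 without the pair term). CHAC1, an enzyme that breaks down glutathione, had 7.71 and 6.96 on the GA arrays and 12.50 and 12.72 on the control arrays, and fell by 5.27 on the log2 scale (standard error 0.27), to 0.0259 times its control level (adjusted p = 8.00e-08 and 0.000237). In both genes the higher GA array lay over 4 log2 units under the lower control array.

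SESN2, a leucine sensor that restrains the growth kinase mTORC1, and DDIT4, another inhibitor of mTORC1, fell alongside. SESN2 had log2 signals of 7.73 and 8.04 on the GA arrays and 11.78 and 11.89 on the control arrays, a fall to 0.0647 times its control level (adjusted p = 6.16e-07 and 0.000261). DDIT4 had 7.14 and 6.98 on the GA arrays and 10.68 and 10.62 on the control arrays, a fall to 0.083 times (adjusted p = 1.31e-06 and 0.000284). For neither gene did the groups come near each other. DDIT3, which encodes CHOP, a transcription factor linked to cell death under prolonged ER stress, had 6.03 and 6.10 on the GA arrays, below background, and 8.84 and 9.37 on the control arrays, at least 4.81-fold lower (adjusted p = 1.06e-05 and 0.00176).

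The mRNA of ATF4 itself fell too. Its log2 signals were 12.23 and 12.14 on the GA arrays and 13.82 and 13.95 on the control arrays, a fall by 1.70 (standard error 0.24, adjusted p = 0.00224 and 0.0137). CEBPG, a partner with which ATF4 forms dimers, had 10.25 and 10.23 on the GA arrays and 12.36 and 12.51 on the control arrays and fell by 2.19 (adjusted p = 0.000251 and 0.00348). ATF3, a repressor of the same family, was at least 1.62-fold lower (adjusted p = 0.00257 and 0.0157), and GADD45A, a stress sensor of growth arrest and DNA repair, fell by 1.63 (adjusted p = 0.00338 and 0.0282). PPP1R15A, which directs dephosphorylation of eIF2, CEBPB and the stress cytokine GDF15 were called lower too, with GA arrays below background. PPP1R15A was at least 2.43-fold and CEBPB at least 1.46-fold lower (adjusted p = 0.0109 and 0.039, and 0.036 and 0.113 without the pair term). For GDF15 the control level lay under the background of the GA arrays, and no fold is given.

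The kinases that start this response were not called. Their log2 fold changes were -0.04 for EIF2AK4 (GCN2, the sensor of uncharged tRNA), 0.49 for EIF2AK3 (PERK, the ER sensor), -0.06 for EIF2AK1 (HRI, the heme sensor) and 0.19 for EIF2AK2 (PKR, the sensor of double-stranded RNA), with adjusted p-values between 0.35 and 0.966. EIF2S1, the eIF2 subunit they phosphorylate, had 11.89 and 11.11 on the GA arrays and 11.98 and 11.61 on the control arrays, which overlap (adjusted p = 0.617). Arrays read mRNA, and phosphorylation is not measured by them.

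Part of the amino acid transporters fell. Of 23 measured, 8 fell and 1 rose (6 and 0 without the pair term), and the median log2 fold change was -0.34. SLC7A11, the cystine and glutamate exchanger that supplies cysteine for glutathione, had log2 signals of 8.54 and 8.50 on the GA arrays and 12.52 and 11.98 on the control arrays, a fall to 0.0752 times its control level (standard error on the log2 scale 0.25, adjusted p = 1.31e-06 and 0.000582). SLC3A2, the heavy chain that carries SLC7A11 and SLC7A5 to the cell surface, had 13.30 and 13.38 on the GA arrays and 15.59 and 15.68 on the control arrays and fell to 0.203 times (adjusted p = 0.000147 and 0.00303). SLC7A5, the leucine carrier LAT1, had 12.49 and 12.28 on the GA arrays and 14.77 and 14.85 on the control arrays and fell to 0.186 times (adjusted p = 0.000116 and 0.00285). All 3 genes of these heterodimers were far below the controls on both GA arrays.

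SLC6A9, a glycine carrier, had 5.70 and 5.78 on the GA arrays, below background, against 9.17 and 8.63 on the control arrays, at least 4.18-fold lower (adjusted p = 9.70e-06 and 0.00172). SLC1A4, a carrier of alanine, serine and cysteine, was at least 1.56-fold lower (adjusted p = 0.000207 and 0.00497). SLC7A1, which imports arginine and lysine, fell by 1.66 on the log2 scale, and the glutamine carriers SLC38A1 and SLC1A5 fell by 1.13 and 1.03, of which SLC7A1 alone passed without the pair term. SLC38A2, a further glutamine carrier, had a log2 fold change of -0.67 and was not called (adjusted p = 0.168). The member that rose was SLC16A10, a carrier of aromatic amino acids, with 8.87 and 8.58 on the GA arrays and 7.79 and 7.37 on the control arrays (log2 fold change 1.15, adjusted p = 0.0237, and 0.0698 without the pair term, where it did not pass).

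Enzymes of amino acid and one-carbon metabolism formed the third group. Of 23 measured, 10 fell and none rose (7 and 0 without the pair term), with a median of -0.69. ASNS, which makes asparagine, had log2 signals of 12.70 and 12.22 on the GA arrays and 15.50 and 15.16 on the control arrays and fell to 0.136 times its control level (adjusted p = 1.38e-05 and 0.00284). Of the serine pathway 2 enzymes fell. PSAT1, its transaminase, had 14.08 and 14.36 on the GA arrays and 16.69 and 16.56 on the control arrays and fell to 0.189 times (adjusted p = 0.000131 and 0.00303). PHGDH, its entry enzyme, had 9.77 and 8.96 on the GA arrays and 10.99 and 11.32 on the control arrays and fell to 0.289 times (adjusted p = 0.00487 and 0.0444). PSPH, its last enzyme, was below background on both GA arrays and was not called (adjusted p = 0.124).

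MTHFD2, a folate enzyme of mitochondria, fell by 1.97 on the log2 scale (adjusted p = 0.000735 and 0.00822), and MTHFD1L, the next mitochondrial step, by 1.15 (adjusted p = 0.0231 and 0.0583). Their cytosolic counterpart MTHFD1 had 13.35 and 13.09 on the GA arrays and 12.45 and 12.59 on the control arrays, a log2 fold change of 0.70 that was not called (adjusted p = 0.153). GOT1, the cytosolic aspartate transaminase, fell by 1.98 (adjusted p = 0.00066 and 0.008), while the mitochondrial GOT2 had a log2 fold change of 0.33 (adjusted p = 0.584). The difference between the paired enzymes was not tested. CBS, which feeds homocysteine towards cysteine, fell by 1.75 (adjusted p = 0.00178 and 0.0173). PCK2, the mitochondrial enzyme that turns oxaloacetate into phosphoenolpyruvate, had 5.24 and 4.98 on the GA arrays, below background, and 8.33 and 9.06 on the control arrays, at least 3.63-fold lower (adjusted p = 5.48e-06 and 0.00172).

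MAT2A, which makes S-adenosylmethionine, the methyl donor of DNA and histone methylation, was among the strongest falls. It had log2 signals of 13.12 and 13.40 on the GA arrays and 16.18 and 16.70 on the control arrays, a fall to 0.111 times its control level (standard error on the log2 scale 0.24, adjusted p = 5.48e-06 and 0.00172). AHCY, which clears the product left after methylation, had 12.14 and 11.96 on the GA arrays and 11.87 and 12.26 on the control arrays, and these overlap (adjusted p = 0.99).

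Aminoacyl-tRNA synthetases, which charge tRNA with amino acids, were called only among those listed here as cytosolic. A gene may serve both compartments, and the difference between the lists was not tested. Of 16 enzymes listed as cytosolic and measured, 9 fell and none rose (7 and 0 without the pair term), with a median of -1.24. Of 15 enzymes listed as mitochondrial, 5 of them below background in both groups, none was called, with a median of 0.06. SARS1, for serine, had log2 signals of 10.33 and 10.15 on the GA arrays and 12.73 and 12.91 on the control arrays and fell to 0.167 times its control level (adjusted p = 6.38e-05 and 0.00217). AARS1, for alanine, had 12.98 and 12.98 on the GA arrays and 15.21 and 15.11 on the control arrays and fell to 0.221 times (adjusted p = 0.000251 and 0.00348). WARS1, GARS1, YARS1, EPRS1, NARS1, CARS1 and IARS1, which serve tryptophan, glycine, tyrosine, glutamate with proline, asparagine, cysteine and isoleucine, fell, with log2 fold changes between -1.54 and -1.22. KARS1, RARS1, FARSA and FARSB, for lysine, arginine and phenylalanine, had log2 fold changes between 0.21 and 0.78 and were not called, nor were TARS1, LARS1 and HARS1, for threonine, leucine and histidine, with -0.91, -0.46 and -0.06.

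**Figure D3:**
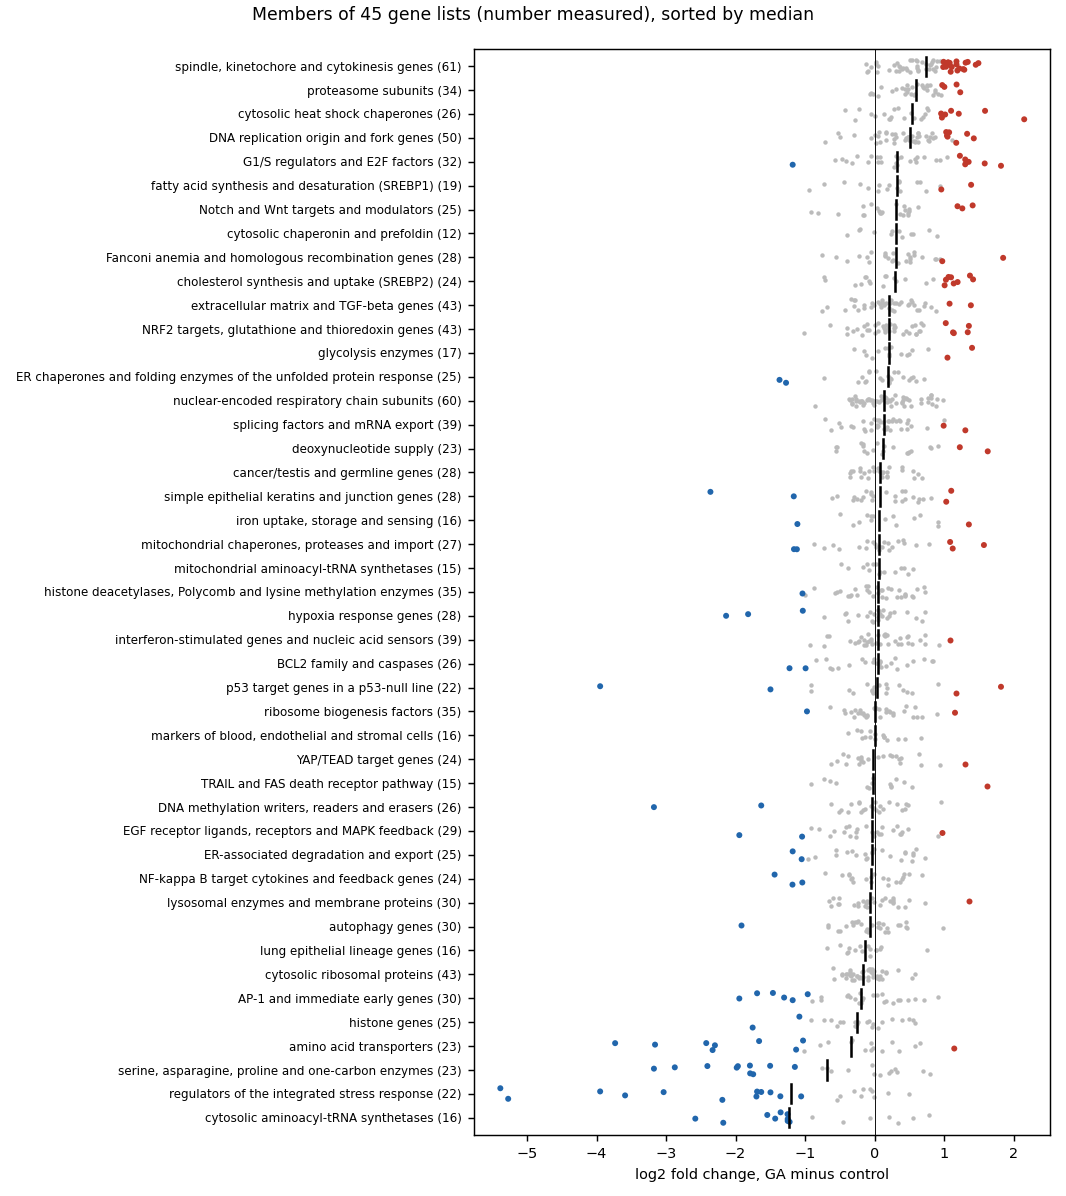
Log2 fold change, GA minus control, of each measured member of 45 gene lists, with the number measured in brackets and the lists ordered by their median, drawn as a black bar. Red points were called higher and blue points called lower. The 4 lists at the bottom, from aminoacyl-tRNA synthetases to amino acid transporters, hold 39 of the called falls, and spindle, proteasome, heat shock and replication genes stand at the top.

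ATF4 and its C/EBP partners bind a composite element, the C/EBP-ATF response element. Its letters TGATGNAA, with N for any base, were searched on both strands of the RefSeq promoter windows (GRCh38.p14), which run from 250 bases before to 50 bases after a gene start. Of 17687 gene symbols tested, 14250 had at least 1 window. The 4 lists above hold 84 different genes. Among the 39 called lower, 34 had a window, and 16 of these (47.1%) held the element. Among the 45 not called lower, 36 had a window, and 4 (11.1%) held it. Over all tested genes the share was 3.59%, over all called higher 3.10% (7 of 226) and over all called lower 11.3% (23 of 204). Among genes called lower outside the 4 lists it was 4.12% (7 of 170). A match is a run of letters and not a measured binding site. TRIB3, SESN2, SLC7A11, DDIT4, MAT2A, SLC6A9 and DDIT3, among the largest falls, had no match in a window or had no window. The elements of 6 genes that fell are shown with up to 16 bases on each side, read in the direction of the gene, with the element in capitals, since they share it on either strand. CHAC1 (chr15:40953246-40953285, plus strand), ASNS (chr7:97872453-97872492, minus), CEBPG (chr19:33374055-33374094, plus), AARS1 (chr16:70289670-70289709, minus), GOT1 (chr10:99430799-99430838, minus) and SLC1A5 (chr19:46784888-46784927, minus) read:
CHAC1: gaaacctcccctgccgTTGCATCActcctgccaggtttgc
ASNS: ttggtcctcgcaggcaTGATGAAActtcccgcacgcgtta
CEBPG: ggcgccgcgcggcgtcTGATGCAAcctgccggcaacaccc
AARS1: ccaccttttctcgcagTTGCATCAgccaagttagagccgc
GOT1: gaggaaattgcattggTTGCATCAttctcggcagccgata
SLC1A5: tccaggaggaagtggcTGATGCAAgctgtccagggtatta

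**Figure D4:**
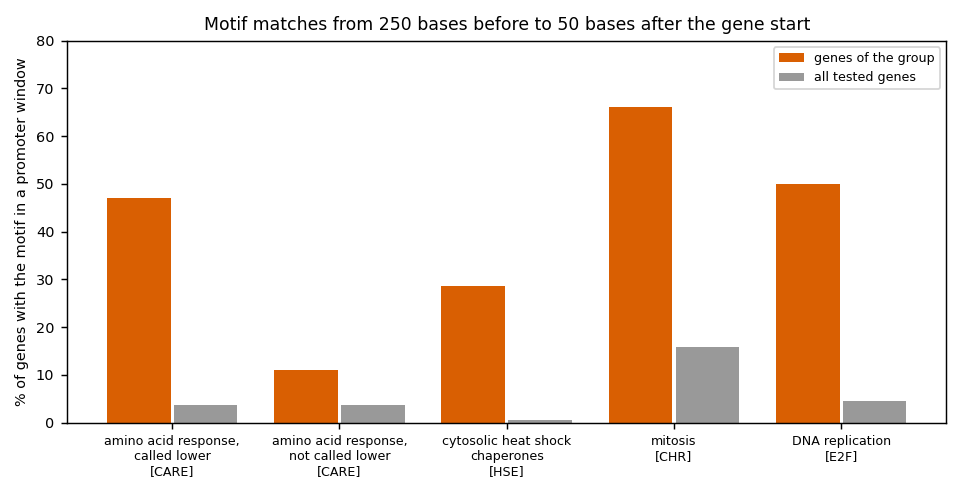
Share of genes with a motif in a promoter window, in percent, for 5 groups of genes (orange) beside all tested genes (grey), with the motif in brackets. The motifs searched for the cholesterol and NRF2 lists are given in the text and not drawn. The element of ATF4 was in 47.1% of called and 11.1% of other genes of the amino acid lists, against 3.59% of all genes.

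Of 25 chaperones and folding enzymes of the ER, 2 fell and none rose, with a median of 0.19. HSPA5, the master chaperone BiP, had log2 signals of 14.70 and 14.62 on the GA arrays and 15.97 and 15.90 on the control arrays and fell by 1.27 (adjusted p = 0.0151 and 0.043), and HYOU1, its exchange partner, by 1.37 (adjusted p = 0.0109 and 0.0427). CALR, a calcium-binding chaperone of glycoproteins, had 15.39 and 15.47 on the GA arrays and 14.65 and 15.02 on the control arrays, a log2 fold change of 0.59 (adjusted p = 0.227). Among 25 genes of ER-associated degradation and export, HERPUD1 and the ER stress sensor ATF6 fell by 1.18 and 1.05 (adjusted p = 0.045 and 0.034), and neither passed without the pair term. XBP1, the factor of the IRE1 branch, had 7.63 and 8.25 on the GA arrays and 8.68 and 8.90 on the control arrays and was not called (adjusted p = 0.0837).

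Genes of hypoxia moved singly. Of 28 measured, 3 fell and none rose, with a median of 0.05 that turned to -0.03 over probe sets above background. STC2, a secreted glycoprotein, had 7.24 and 7.33 on the GA arrays and 9.26 and 9.58 on the control arrays and fell by 2.14 (adjusted p = 0.000297 and 0.00571). VEGFA, the angiogenic growth factor, had 8.99 and 9.14 on the GA arrays and 10.78 and 10.996 on the control arrays and fell by 1.82 (adjusted p = 0.0012 and 0.0119). ADM, a further gene induced by low oxygen, had 8.04 and 7.99 on the GA arrays and 8.14 and 7.96 on the control arrays, which overlap.

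Some cytosolic chaperones rose. Of 26 measured, 7 rose and none fell (3 and 0 without the pair term), with a median of 0.54. HSPA1A, the inducible HSP70, had log2 signals of 11.57 and 10.95 on the GA arrays and 9.07 and 9.15 on the control arrays and rose 4.44-fold (adjusted p = 0.000546 and 0.0119). It has a near-identical copy that may share its signal, and with HSPH1 and CHORDC1 it belongs to the 72 genes that the study tabled as up-regulated by both compounds on these arrays, so its direction is not independent evidence. HSPA2, a testis-enriched HSP70, had 8.63 and 8.15 on the GA arrays and 6.67 and 6.93 on the control arrays and rose 3.01-fold (adjusted p = 0.0063 and 0.0342). The HSP90 co-chaperones FKBP4 and STIP1 rose 2.14-fold and 1.96-fold (adjusted p = 0.03 and 0.0463, and 0.0593 and 0.0937 without the pair term). HSP90AA1, the stress-inducible HSP90, had 16.06 and 15.66 on the GA arrays and 14.95 and 15.39 on the control arrays and was not called (adjusted p = 0.193). HSF1, the factor that drives these genes, had a log2 fold change of -0.28 (adjusted p = 0.624).

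The heat shock element was searched on both strands as 3 inverted repeats of GAA or its complement TTC, each set apart by 2 bases. It was in 6 of 21 chaperone genes with a window (28.6%), against 0.561% of all genes and 1.33% of all called higher (3 of 226). HSPA1A, HSPA2 and HSPH1 had no match in a window or had no window. Called members with it were DNAJA1, a J-domain co-chaperone, and CHORDC1, a partner of HSP90. The window of CHORDC1 (chr11:90223076-90223120, minus strand) is shown because overlapping matches follow each other there, of which 1 is in capitals:
CHORDC1: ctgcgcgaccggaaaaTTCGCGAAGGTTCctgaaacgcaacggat

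Most proteasome subunits had small positive changes. Of 34 measured, 31 had a positive log2 fold change, where 52.6% of all probe sets had one, and the median was 0.59. The test called 4 of them higher and none lower (1 and 0 without the pair term). PSMB6, a catalytic subunit of the core, had 12.72 and 12.58 on the GA arrays and 11.38 and 11.46 on the control arrays and rose 2.35-fold (adjusted p = 0.0182 and 0.0459). PSMD1 and PSMD3, of the regulatory particle, rose 1.96-fold and 2-fold (adjusted p = 0.046 and 0.0424, and 0.0711 and 0.0698 without the pair term), and PSMA5, a core subunit in the study's table, 2.26-fold. POMP, the factor that assembles the core, had 12.12 and 11.74 on the GA arrays and 10.42 and 10.58 on the control arrays and rose 2.69-fold (adjusted p = 0.0103 and 0.0412). PSMB5, another catalytic subunit, had 11.27 and 11.36 on the GA arrays and 11.23 and 11.31 on the control arrays, which overlap (adjusted p = 0.951).

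In mitochondria the chaperones moved both ways. Of 27 genes of folding, proteolysis and import, 3 rose and 2 fell. HSPE1, the co-chaperonin of the study's table, rose 2.97-fold (adjusted p = 0.00378 and 0.0173), and its partner HSPD1 had 15.70 and 15.89 on the GA arrays and 15.05 and 15.36 on the control arrays, not called (adjusted p = 0.219). TOMM40, the import channel, and TOMM5, a small subunit beside it, rose 2.12-fold and 2.18-fold (adjusted p = 0.0491 and 0.0262). The protease LONP1 had 6.97 and 6.90 on the GA arrays and 8.09 and 8.11 on the control arrays and fell by 1.16 (adjusted p = 0.0222), and TIMM44, which anchors the import motor, was at least 1.31-fold lower (adjusted p = 0.0264). Of these, HSPE1 alone passed without the pair term.

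Many genes of cell division were higher. Of 61 genes of spindle, kinetochore and cytokinesis, 57 had a positive log2 fold change and the median was 0.74, the highest of the 45 lists. The test called 20 higher and none lower (5 and 0 without the pair term), and 11 of the 20 are in the study's table. More cells in mitosis and more mRNA per dividing cell cannot be told apart in such bulk samples. Outside the table, PTTG1 (securin), which holds sister chromatids together until anaphase, had log2 signals of 13.12 and 13.08 on the GA arrays and 11.53 and 11.69 on the control arrays and rose 2.81-fold (adjusted p = 0.00608 and 0.0231). CDCA3, which takes part in the degradation of a mitotic inhibitor, had 8.25 and 7.80 on the GA arrays and 6.75 and 6.40 on the control arrays and rose 2.74-fold (adjusted p = 0.00686 and 0.0456). NUSAP1, a spindle protein, and CDK1, the mitotic kinase, rose 2.42-fold and 2.03-fold (adjusted p = 0.0262 and 0.0487) and neither passed without the pair term.

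The mitotic kinases PLK1 and AURKB were not among the calls. PLK1 had 14.31 and 14.17 on the GA arrays and 13.80 and 13.77 on the control arrays, a log2 fold change of 0.46 (adjusted p = 0.372), and AURKB had 10.45 and 10.41 on the GA arrays and 10.17 and 10.08 on the control arrays, 0.30 (adjusted p = 0.597). In both genes the GA arrays lay above the control arrays. PBK, a kinase active in mitosis that is no member of the list, had 9.52 and 9.74 on the GA arrays and 8.12 and 8.15 on the control arrays and rose 2.82-fold (adjusted p = 0.00594 and 0.0239). NUDC, which serves the motor dynein, rose 2.64-fold (adjusted p = 0.017, and 0.0591 without the pair term).

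The cell cycle homology region, TTTGAA on either strand, is the usual mark of mitotic promoters. At least 1 match was in 35 of 53 mitosis genes with a window (66.0%) and in 12 of the 19 called higher (63.2%), against 15.9% of all genes and 21.2% of all called higher. Among genes called higher outside the mitosis and replication lists the share was 17.8% (36 of 202). A motif of this length is frequent by itself. The matches of CDK1 (chr10:60778393-60778430, plus strand), CCNB2 (chr15:59105101-59105138, plus) and CDCA3 (chr12:6851268-6851305, minus) begin at positions -69, -29 and -3 from the gene start and are printed for this place:
CDK1: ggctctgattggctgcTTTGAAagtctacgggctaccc
CCNB2: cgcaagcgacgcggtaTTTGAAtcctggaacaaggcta
CDCA3: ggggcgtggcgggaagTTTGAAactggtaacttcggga

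Most genes of DNA replication had positive changes too. Of 50 genes of origins and forks, 45 had a positive log2 fold change, the median was 0.50, and 7 rose while none fell (2 and 0 without the pair term). RPA2, a subunit of the single-strand binding protein, had 8.60 and 9.09 on the GA arrays and 7.28 and 7.55 on the control arrays and rose 2.69-fold (adjusted p = 0.00829 and 0.0468). MCM10 and GINS2, which help to fire the replicative helicase, rose 2.26-fold and 2.06-fold (adjusted p = 0.0222 and 0.0376), and GINS4 was at least 1.87-fold higher (adjusted p = 0.038). These 3 did not pass without the pair term. PCNA, RFC3 and POLE2, the clamp, a clamp loader and a polymerase subunit, are in the study's table. Of the helicase itself, MCM2 had 9.39 and 9.59 on the GA arrays and 9.18 and 8.90 on the control arrays and MCM5 had 10.47 and 10.21 on the GA arrays against 10.31 and 10.26 on the control arrays, and neither was called (adjusted p = 0.398 and 0.946). RRM2, the regulated subunit of ribonucleotide reductase, which makes deoxynucleotides, had 13.44 and 13.46 on the GA arrays and 11.65 and 12.001 on the control arrays and rose 3.09-fold (standard error on the log2 scale 0.25, adjusted p = 0.00338 and 0.02).

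E2F sites were searched as TTTGGCGC, TTTCCCGC and TTTCGCGC on both strands. Of 44 replication genes with a window 22 (50%) held at least 1, against 4.48% of all genes and 7.08% of all called higher. Among genes called higher outside the mitosis and replication lists the share was 4.95% (10 of 202). The sites of PCNA (chr20:5126658-5126697, minus strand), RFC3 (chr13:33818078-33818117, plus) and CDC25A (chr3:48188438-48188477, minus), a phosphatase that activates cyclin-dependent kinases, stand for genes that rose:
PCNA: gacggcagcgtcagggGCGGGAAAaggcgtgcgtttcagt
RFC3: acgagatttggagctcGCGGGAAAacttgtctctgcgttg
CDC25A: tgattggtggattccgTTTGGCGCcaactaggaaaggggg

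At the entry to S phase, 6 of 32 regulators rose and 1 fell (4 and 0 without the pair term). CCNE1, a cyclin that opens S phase, had 7.73 and 8.09 on the GA arrays and 6.31 and 6.91 on the control arrays and rose 2.47-fold (adjusted p = 0.0141, and 0.0656 without the pair term). SKP2, which marks cell cycle inhibitors for degradation, rose 2.47-fold (adjusted p = 0.0141 and 0.0427). The inhibitor CDKN1A, the cyclins CCNE2 and CCND3 and the phosphatase CDC25A were the other rises, all in the study's table. MYC, a driver of growth, had 12.72 and 12.63 on the GA arrays and 13.78 and 13.93 on the control arrays and fell by 1.18 on the log2 scale (adjusted p = 0.0219, and 0.0508 without the pair term). MYB, a transcription factor of progenitor cells, had 7.50 and 7.21 on the GA arrays and 5.81 and 5.65 on the control arrays, below background, and rose, at least 1.92-fold (adjusted p = 0.00312 and 0.0198). E2F1 had 8.22 and 7.998 on the GA arrays and 6.71 and 7.42 on the control arrays and missed the threshold (adjusted p = 0.0519).

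Some genes of cholesterol synthesis rose. Of 24 genes of synthesis and uptake, 8 rose and none fell (2 and 0 without the pair term), with a median of 0.29. MSMO1, a late demethylase of sterols, had 15.05 and 15.26 on the GA arrays and 13.96 and 13.97 on the control arrays and rose 2.29-fold (adjusted p = 0.0211 and 0.0508). FDPS and IDI1, which build the isoprenoid units, rose 2.14-fold and 2.09-fold (adjusted p = 0.0276 and 0.0375, and 0.0564 and 0.0715 without the pair term). HSD17B7 and MVD rose by 1.01 and 1.03 on the log2 scale and did not pass without the pair term, and ACAT2, INSIG1 and HMGCS1 are in the study's table. SQLE, the epoxidase, had 10.88 and 11.37 on the GA arrays and 10.34 and 10.23 on the control arrays, without overlap, and was not called (adjusted p = 0.0951). LRP8, a receptor of lipoproteins and reelin, had 10.10 and 10.19 on the GA arrays and 8.42 and 9.01 on the control arrays and rose 2.69-fold (adjusted p = 0.0101 and 0.0502). The sterol element, searched as TCACNCCAC on both strands, was in 1 of 21 cholesterol genes with a window (4.76%). It was in 1.52% of all genes and 0.885% of all called higher (2 of 226).

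In fatty acid synthesis ACLY, which makes cytosolic acetyl-CoA, rose 1.94-fold (adjusted p = 0.048 and 0.0723), while FASN had 14.63 and 14.91 on the GA arrays and 13.87 and 13.79 on the control arrays and just missed (adjusted p = 0.0537). SREBF1, the factor that governs this pathway, had 14.21 and 14.44 on the GA arrays and 15.38 and 15.15 on the control arrays, a log2 fold change of -0.94 (adjusted p = 0.0574), and SCD, the desaturase, one of -0.44 (adjusted p = 0.407). Of 19 genes, 2 were called. CROT, which exports fatty acids from peroxisomes as carnitine esters, had 9.58 and 10.12 on the GA arrays and 8.56 and 8.40 on the control arrays and rose 2.58-fold (adjusted p = 0.0145 and 0.0508).

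Genes of redox defence rose in part. Of 43 targets of NRF2 and genes of the glutathione and thioredoxin systems, 5 were called higher, 1 of them below background in both groups, and none lower (1 and 0 without the pair term), with a median of 0.21. GSTM3, a glutathione transferase, had 9.22 and 9.05 on the GA arrays and 7.81 and 7.78 on the control arrays and rose 2.53-fold (adjusted p = 0.0119 and 0.0368). GCLM, the modifier subunit of the enzyme that starts glutathione synthesis, had 9.21 and 8.90 on the GA arrays and 7.85 and 8.004 on the control arrays and rose 2.18-fold (adjusted p = 0.0282 and 0.0593). PRDX1, a peroxiredoxin, rose 2.03-fold (adjusted p = 0.0379 and 0.066), and catalase (CAT) rose at least 1.89-fold (adjusted p = 0.0247 and 0.0591). HMOX1, heme oxygenase, was the member below background in both groups, so no change is read for it. NQO1 had 14.41 and 14.72 on the GA arrays and 13.95 and 13.98 on the control arrays and was not called (adjusted p = 0.224). The cystine carrier SLC7A11, which NRF2 and ATF4 are both known to drive, is counted with the transporters above, among the falls.

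Of 17 glycolysis enzymes 2 rose, LDHA, the lactate dehydrogenase, 2.07-fold (adjusted p = 0.0381 and 0.0698) and HK1, a hexokinase below background in the controls, at least 2.07-fold (adjusted p = 0.0141 and 0.0508). GAPDH had 18.02 and 17.89 on the GA arrays and 18.25 and 18.25 on the control arrays (adjusted p = 0.617). SLC39A8, a zinc and manganese importer, rose 2.54-fold (adjusted p = 0.0131 and 0.0456), while its relative SLC39A14 fell by 1.11 on the log2 scale (adjusted p = 0.0424, and 0.0975 without the pair term).

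Some immediate early genes, which answer growth factor signals within minutes, fell. Of 30 measured, 6 fell and none rose (2 and 0 without the pair term), with a median of -0.20. DUSP6, a phosphatase that reports the activity of the kinase ERK, had log2 signals of 9.64 and 9.81 on the GA arrays and 11.80 and 11.54 on the control arrays and fell by 1.95 (adjusted p = 0.000822 and 0.00907). EGR1 had 9.49 and 10.11 on the GA arrays and 11.08 and 11.13 on the control arrays and fell by 1.30 (adjusted p = 0.0172 and 0.0591). IER2 and IER3, short-lived early response genes, fell by 1.46 and 0.96 (adjusted p = 0.00686 and 0.049, and 0.0807 and 0.0742 without the pair term), and MYC and ATF3 are counted here too. JUN had 9.30 and 8.998 on the GA arrays and 9.62 and 10.22 on the control arrays and was not called, and FOS was below background on all arrays. ETV5, another ERK-dependent gene, fell by 1.04, and NRG1, a ligand of the EGF receptor family, rose 1.97-fold (adjusted p = 0.0351 and 0.046, and 0.061 and 0.0782 without the pair term).

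Among 24 targets of NF-kappa B, 12 of them below background in both groups, 3 fell and none rose (1 and 0 without the pair term). CXCL2, a neutrophil chemokine, had 9.63 and 9.57 on the GA arrays and 10.80 and 11.29 on the control arrays and fell by 1.44 (adjusted p = 0.00988 and 0.0444), and RELB, a subunit of the factor, fell by 1.04 (adjusted p = 0.048, and 0.102 without the pair term). NFKBIA, its inhibitor, had a log2 fold change of 0.42 (adjusted p = 0.431). MAP1LC3B, the coat protein of autophagosomes, was the called member of 30 autophagy genes (3.33%, against 2.89% of all probe sets). It had 11.66 and 11.84 on the GA arrays and 13.44 and 13.90 on the control arrays and fell by 1.92 (adjusted p = 0.000822 and 0.0137). Its cargo receptor SQSTM1 had 13.16 and 13.26 on the GA arrays and 13.73 and 14.04 on the control arrays and was not called (adjusted p = 0.161).

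The study aimed at DNA methylation. Of 26 writers, readers and erasers 2 were called (7.69%, against 2.89% of all probe sets), both lower also without the pair term: MAT2A and GADD45A, named above. DNMT1, the maintenance methyltransferase, had 9.22 and 9.01 on the GA arrays and 8.97 and 9.04 on the control arrays, which overlap (log2 fold change 0.11, standard error 0.24, adjusted p = 0.877). DNMT3A, which sets new marks, had 9.82 and 9.68 on the GA arrays and 10.15 and 10.30 on the control arrays, without overlap, and was not called (log2 fold change -0.48, standard error 0.24, adjusted p = 0.349). DNMT3B was below background on all 4 arrays. The arrays measure neither protein nor methylation. Of 28 cancer/testis and germline genes, a class often silenced by methylation, 20 were below background in both groups and none was called; MAGEA4 had 12.69 and 12.67 on the GA arrays and 12.64 and 12.62 on the control arrays.

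Windows rich in CpG, with an observed over expected ratio above 0.6, were held by 88.1% of genes called higher (199 of 226) and 88.7% of genes called lower (181 of 204), against 71.6% of all tested genes. Among genes above background the share was 91.2% of those called higher (166 of 182), 90.9% of those called lower (170 of 187) and 92.7% of all. Of 35 chromatin enzymes 1 was called (2.86%, against 2.89% of all probe sets). It was KDM6B, a histone demethylase, lower by 1.05 on the log2 scale (adjusted p = 0.0384, and 0.0713 without the pair term). HDAC2 and EZH2 had log2 fold changes of 0.32 and 0.09 (adjusted p = 0.587 and 0.908). Of 25 histone genes 2 fell, the linker histones H1-10, at least 1.45-fold (adjusted p = 0.00338 and 0.0322), and H1-2, by 1.08 on the log2 scale (adjusted p = 0.0413, and 0.0807 without the pair term). Of 39 interferon-stimulated genes 1 was called (2.56%), the receptor chain IFNAR2 of the study's table, and 20 were below background in both groups.

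H1299 cells carry a known deletion of the p53 gene. Of 22 p53 target genes, 2 rose and 2 fell, CDKN1A and POLH of the study's table among the rises and SESN2 and GDF15, which ATF4 is known to drive as well, among the falls. MDM2 had 8.63 and 8.51 on the GA arrays and 8.28 and 8.53 on the control arrays, and BAX had 9.72 and 9.22 on the GA arrays against 9.09 and 9.53 on the control arrays, and in both genes the groups overlap. Of 26 BCL2 family genes and caspases, BOK, a killer protein, was at least 1.97-fold lower (adjusted p = 0.0182 and 0.0468), and XIAP, a caspase inhibitor, fell by 0.99 (adjusted p = 0.0426, and 0.11 without the pair term). MCL1, a survival protein, had 11.65 and 11.84 on the GA arrays and 12.54 and 12.36 on the control arrays and was not called (adjusted p = 0.151). TNFRSF10B, a TRAIL death receptor, had 7.58 and 7.83 on the GA arrays and 8.78 and 8.48 on the control arrays (log2 fold change -0.92, adjusted p = 0.0649), and TNFRSF10D, a decoy receptor of the study's table, rose 3.06-fold.

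Markers of cell identity were mixed in both groups. KRT8, VIM and ZEB1 were above background on all 4 arrays, whereas CDH1, EPCAM and all 16 lung lineage genes, among them NKX2-1 and the surfactant genes, were below it on all 4. VIM, the mesenchymal filament, had 15.17 and 15.25 on the GA arrays and 15.17 and 15.27 on the control arrays, which overlap. KRT18, a simple keratin, had 10.63 and 10.61 on the GA arrays and 9.32 and 9.86 on the control arrays and rose 2.04-fold (adjusted p = 0.0433, and 0.0878 without the pair term). CLDN1, a tight junction protein, had 10.14 and 9.78 on the GA arrays and 12.29 and 12.35 on the control arrays and fell to 0.194 times its control level (adjusted p = 0.000147 and 0.00348), the largest fall among named genes that are outside the 4 lists of the stress response and above background after GA. ID1, an inhibitor of differentiation factors, rose 2.4-fold, and FJX1, a secreted growth regulator, 2.46-fold (adjusted p = 0.0219 and 0.0242, and 0.0619 and 0.0698 without the pair term).

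Further genes of large change lay outside these lists. SLFN5, of the Schlafen family, had 7.89 and 7.91 on the GA arrays and 10.06 and 10.04 on the control arrays and fell to 0.225 times (adjusted p = 0.000276 and 0.00348). RAB39B, a small GTPase of vesicle traffic, was called lower, with log2 signals of 4.40 and 4.56 on the GA arrays and 6.33 and 7.09 on the control arrays. Its control mean lay under the background of the GA arrays, so no fold is given. SCML1, a Polycomb-like protein, had 9.03 and 9.85 on the GA arrays and 7.69 and 7.99 on the control arrays and rose 3.04-fold (adjusted p = 0.00442, and 0.0522 without the pair term). DEPDC7 had 8.03 and 8.31 on the GA arrays and 6.63 and 6.49 on the control arrays and rose 3.04-fold (adjusted p = 0.00391 and 0.02). JPH1, a junctophilin that ties the ER to the plasma membrane, rose at least 1.91-fold (adjusted p = 0.0049 and 0.02). EDC4, of mRNA decapping, NAV3, a microtubule regulator, and GUCY1B1, a subunit of the nitric oxide receptor, rose 2.68-fold, 2.63-fold and 2.58-fold (adjusted p = 0.0083, 0.0174 and 0.0167), and none of the 3 passed without the pair term.

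**Figure D5:**
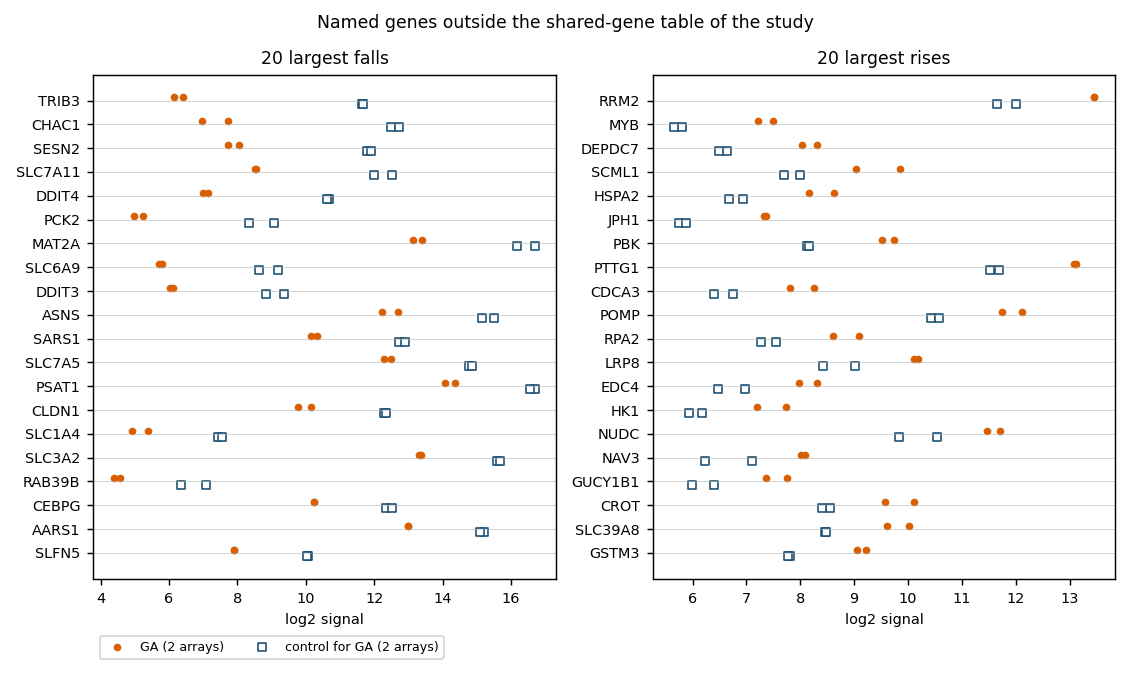
Log2 signal on each array for the 20 largest falls (left) and 20 largest rises (right) among called, named genes outside the study's table that lay above background on both arrays of the higher group, GA arrays as filled circles and control arrays as open squares. The groups do not overlap in any of the 40 genes, and the genes with the widest distance are falls (CHAC1 fell by 5.27, TRIB3 at least 28.3-fold).

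Of 43 cytosolic ribosomal proteins none was called, with log2 fold changes between -0.60 and 0.58 and a median of -0.16. Of 60 nuclear-encoded subunits of the respiratory chain none was called, with log2 fold changes between -0.86 and 0.99 and a median of 0.13. Of 12 subunits of the cytosolic chaperonin and prefoldin none was called, and CCT2 came nearest, with 13.91 and 13.90 on the GA arrays and 12.74 and 13.27 on the control arrays (adjusted p = 0.0717). At the share of 2.89% over all probe sets few calls would fall in lists of this size. At an unadjusted p under 0.05, 3585 of all probe sets would pass.

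On and off states were rare in these data. Above background on both GA arrays and below it on both control arrays were 31 probe sets, of which 20 were called. The converse held for 333, of which 40 were called. The background level was higher on both GA arrays than on both control arrays, and its part in this difference was not tested. Of the 72 genes that the study tabled, 68 were measured by name, and 65 of these were called higher (27 without the pair term), a direction that the choice of these genes on the same arrays fixes. Outside that table, 216 named probe sets were called higher and 255 lower.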

How the data were processed

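Total RNA of GA-treated and untreated H1299 cells was hybridised to Affymetrix Clariom S HT arrays. The authors deposited log2 signals, made per the labels in Affymetrix Expression Console 1.4 with Signal Space Transformation and RMA, which quantile-normalises arrays to each other and so hides a shift shared by all genes. The genome build of the array design was not given in the sources used here. The table holds 24351 rows. Its 2903 control rows were set aside, and 21448 probe sets were tested, 17709 of them with a symbol from the platform annotation. limma 3.58.1 (R 4.3.3, lmFit and eBayes, Benjamini-Hochberg adjustment, threshold 0.05) was fitted to the 4 arrays with the replicate number as a pair term, as the methods name a paired test, although the numbers are not shown to pair the cultures. With 2 arrays a group an exact permutation test cannot go below p = 0.333, so genes were tested in the fit across all probe sets alone. The fit was tested on simulated data. A background level came from 612 negative-control probe sets. A symbol with several probe sets is described by the brightest.

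The gene lists, their members and the 72 genes of the study's table were chosen with earlier results of these data known, so no list was tested as a set. Genes named in the text are the 20 largest rises and 20 largest falls among called genes outside that table that moved alike in both pairs and lay above background on both arrays of the higher group, up to 6 called members and a few leading genes of each list, genes that the study measured otherwise, and cell type markers. Others named within a list were chosen after their values were seen. Promoter windows are those of RefSeq (GRCh38.p14). Alternatives were a fit without the pair term, all 8 arrays of the series in 1 fit, the methods' t-test, other normalisations and filters, and leaving out each array. No column of the authors' own comparisons was used.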

Additional observations from a re-analysis of the deposited data

Results flagged for a closer look

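The negative-control probe sets were not compared themselves, but they set the background level. Their median log2 signal was 3.52 on both GA arrays, against 3.40 and 3.41 on the control arrays, a difference of 0.12 between the group means. This signal was singled out because it lies outside the main measurement and above its level in the control arrays. In the other control classes, the median of the 23 background probe sets was 3.76 and 3.85 on the GA arrays against 3.75 and 3.77 on the control arrays, and that of the 8 further spike-in probe sets was 7.61 and 7.73 on the GA arrays against 7.57 and 7.46 on the control arrays. The median of the 63 ERCC spike-in probe sets was 3.48 and 3.43 on the GA arrays against 3.53 and 3.43 on the control arrays, and that of the 2197 positive controls was 12.55 and 12.51 on the GA arrays against 12.55 and 12.58 on the control arrays. The part of this difference in the smaller number of probe sets above background on the GA arrays was not tested.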

How the results depend on the processing

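The count of calls depended on the fit. Against 620 calls (326 higher, 294 lower) with the replicate number as a pair term, the fit with no replicate block gave 142 (55 higher, 87 lower), all 8 arrays in 1 fit gave 69 (17 higher, 52 lower), and median centring gave 356 (165 higher, 191 lower). A prior spread with trend and robust estimation gave 1482 (827 higher, 655 lower). Testing only probe sets above background gave 1706 (911 higher, 795 lower), and leaving out the dimmest 33% gave 442 lower calls. Each call without the pair term, in the 8-array fit and after median centring was among the 620. In the 8-array fit the stress response regulators kept 10 of 12 lower calls, transporters 6 of 8, amino acid enzymes 6 of 10 and cytosolic synthetases 2 of 9. Of the higher calls, mitosis kept 1 of 20, heat shock 1 of 7 and replication 1 of 7. Cholesterol kept 0 of 8, proteasome 0 of 4 and NRF2 genes 0 of 5. Calls without 1 array ranged from 13 to 30 (14 and 26 between), higher calls from 0 to 5 and lower calls from 12 to 25 (14 and 24 between). The methods' t-test, paired, passed 160 probe sets (68 higher, 92 lower) at their unadjusted threshold and 2-fold, and 9 (5 higher, 4 lower) after Benjamini-Hochberg. Unpaired it passed 383 (195 higher, 188 lower) and 0 after adjustment, where limma without the pair term called 142. Quantile normalisation (651 calls) and a minimum change of 2-fold (535) stayed within 1.5 times the count. The cause was not tested. Deviations of same-numbered arrays from their group means correlated at -0.0230, so the labels' numbers are not shown to pair the cultures.

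No result changed its direction past the threshold. With the pair term, without it and in the 8-array fit, a gene's log2 fold change is the same, so those fits could not change it. Of 141 called genes among the 243 followed singly, 72 stayed called without the pair term, 42 in the 8-array fit, 140 after quantile normalisation, and 14, 13, 23 and 23 without GA replicate 1, GA replicate 2, control replicate 1 and control replicate 2. Of 494 list medians recomputed, 30, in 15 lists, turned sign, none of them in the 4 lists of the stress response, proteasome, heat shock, replication or mitosis. Lung lineage genes have no value over probe sets above background. With 2 arrays a group, 2-fold changes were rarely recovered on simulated data, and dim genes have only bounds.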
